A study of Homo sapiens with 4 samples.

Results

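FOXK2 peaks at the genes of glucose, amino acid and lactate transporters were examined in OVCAR5 cells, an established ovarian cancer line that the labels give as high-grade serous and from ascites. The 2 biological replicates were untreated cells in routine RPMI culture, with no change to FOXK2 itself, so that all values describe a single line under a single condition. Crosslinked and sonicated chromatin was immunoprecipitated with an antibody to FOXK2, and the authors called and annotated peaks on hg38 for each replicate separately. A peak was counted as a transporter peak if the gene name the authors' annotation gave it, that of the nearest transcription start site (TSS), belonged to 1 of 7 solute carrier (SLC) families, namely SLC1, SLC2, SLC3, SLC6, SLC7, SLC16 and SLC38. This gave 49 of 12471 peaks in replicate 1, at 32 genes, and 113 of 27281 peaks in replicate 2, at 50 genes. The peak score, which HOMER derives from the number of sequence tags at a peak, was a whole multiple of a fixed step in each list for scores below 10, and higher scores were rounded to the nearest step. If HOMER's default scaling to 10000000 tags was used, the lists rested on about 53000000 and 67200000 tags, and the 49 and 113 transporter peaks held 19 to 108 tags and 22 to 242 tags.

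Glucose and amino acids cross the plasma membrane through carriers, which divide by cargo and mechanism. SLC2 proteins let hexoses down their gradient, SLC1, SLC6 and SLC38 proteins use sodium to draw in amino acids and related molecules, SLC7 light chains exchange amino acids while held at the membrane by an SLC3 heavy chain, and several SLC16 proteins move lactate and pyruvate together with a proton. Proliferating tumour cells are known for high glucose uptake, lactate release and glutamine uptake. FOXK2 is a forkhead transcription factor that binds DNA through the heptamer TGTTTAC, and together with FOXK1 it is known for control of glycolysis and of the response to starvation.

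The 8 regions below were the best-scoring pairs of overlapping transporter peaks with the heptamer in both replicates, shown because they hold the sequence FOXK2 is known to bind. Each is the stretch covered by both peaks, or a window of 30 bases where it lay in an annotated untranslated exon. All are given on the plus strand of hg38, 5′ to 3′, with the heptamer or its reverse complement in capitals.
SLC2A2 (chr3:171002585-171002614): agtgaaaaccaTGTTTACagcgccaactcc
SLC2A10 (chr20:46715450-46715638): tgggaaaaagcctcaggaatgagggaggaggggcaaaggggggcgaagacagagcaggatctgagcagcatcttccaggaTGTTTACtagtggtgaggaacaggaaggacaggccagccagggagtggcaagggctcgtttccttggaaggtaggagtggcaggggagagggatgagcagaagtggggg
SLC2A12 (chr6:134029590-134029800): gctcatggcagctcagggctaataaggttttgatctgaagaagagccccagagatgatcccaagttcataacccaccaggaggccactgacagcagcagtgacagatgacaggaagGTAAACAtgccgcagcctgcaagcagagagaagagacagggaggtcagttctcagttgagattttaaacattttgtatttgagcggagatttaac
SLC1A1 (chr9:4420453-4420663): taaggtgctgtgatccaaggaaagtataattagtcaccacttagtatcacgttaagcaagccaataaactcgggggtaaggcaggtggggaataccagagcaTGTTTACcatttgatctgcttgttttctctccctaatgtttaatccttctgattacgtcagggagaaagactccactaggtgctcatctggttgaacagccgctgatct
SLC1A5 (chr19:46784907-46785117): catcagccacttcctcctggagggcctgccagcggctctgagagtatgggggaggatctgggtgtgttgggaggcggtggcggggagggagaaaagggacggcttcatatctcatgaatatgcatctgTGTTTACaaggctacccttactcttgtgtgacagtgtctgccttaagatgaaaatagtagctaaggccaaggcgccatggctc
SLC3A1 (chr2:44277805-44278015): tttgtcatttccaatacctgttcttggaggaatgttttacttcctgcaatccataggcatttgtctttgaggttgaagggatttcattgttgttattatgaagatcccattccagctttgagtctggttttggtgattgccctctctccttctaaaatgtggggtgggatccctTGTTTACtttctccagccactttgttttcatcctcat
SLC6A2 (chr16:55623247-55623457): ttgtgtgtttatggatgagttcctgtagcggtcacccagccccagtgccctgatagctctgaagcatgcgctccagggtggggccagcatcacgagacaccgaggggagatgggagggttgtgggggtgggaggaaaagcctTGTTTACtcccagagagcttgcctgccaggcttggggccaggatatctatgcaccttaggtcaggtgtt
SLC38A4 (chr12:46665070-46665280): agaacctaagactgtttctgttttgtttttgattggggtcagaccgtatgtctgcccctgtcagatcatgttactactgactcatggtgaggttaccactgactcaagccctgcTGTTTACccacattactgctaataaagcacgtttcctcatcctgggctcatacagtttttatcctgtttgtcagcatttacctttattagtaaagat
Only the SLC1A5 region lay in a promoter. The SLC2A12 peaks were annotated to exon 2, and their heptamer reads on the minus strand. The SLC2A2 peaks were annotated to intron 8 in replicate 1 and to an exon of another transcript in replicate 2. The SLC2A10 and SLC3A1 regions were in intron 1, and the SLC1A1, SLC6A2 and SLC38A4 regions were intergenic.

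A pair of promoter regions without the heptamer was added after their values were seen, because they were the transporter promoters with the best pairs of peaks. The SLC38A2 stretch was limited to bases upstream of the assigned TSS. In the SLC7A11 stretch, capitals mark TGATGNAA, the core of the amino acid response element, through which ATF4 acts on genes of amino acid supply.
SLC38A2 (chr12:46372863-46372947): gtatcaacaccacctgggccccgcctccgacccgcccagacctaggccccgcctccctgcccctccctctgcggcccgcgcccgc
SLC7A11 (chr4:138242408-138242618): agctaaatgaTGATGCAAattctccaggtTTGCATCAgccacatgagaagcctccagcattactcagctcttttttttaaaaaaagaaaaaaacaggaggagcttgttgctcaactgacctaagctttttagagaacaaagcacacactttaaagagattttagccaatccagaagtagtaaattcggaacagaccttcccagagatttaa
The SLC7A11 stretch held this core 2 times, in opposite orientations.

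FOXK2 peaks were assigned in at least 1 replicate to 53 of the 80 genes of these families in GENCODE. In replicate 1, 32 had a peak (40.0%, Wilson 95% interval 30.0% to 51.0%), against 31.3% of 20052 coding genes. In replicate 2, 50 had a peak (62.5%, 51.5% to 72.3%), against 51.7%. Peaks were assigned in both replicates to 29 genes (36.2%, 26.6% to 47.2%), against 28.6%, and for 28 of these genes peaks of the 2 replicates overlapped by at least 1 bp (35.0%, 25.5% to 45.9%), against 25.5%. A peak annotated as promoter was present in both replicates at 6 genes (7.50%, 3.48% to 15.4%), against 9.30%. These 6 were SLC38A2, SLC7A11, SLC6A6, SLC1A5, SLC2A12 and SLC16A5. The intervals cover counting error only, and the differences from all coding genes were not tested. The remaining genes were 21 with peaks in replicate 2 only, 3 with a peak in replicate 1 only and 27 to which neither list assigned a peak. As background for these counts and for the 53, of 20052 coding genes 6275 had a peak in replicate 1, 10362 in replicate 2 and 5734 in both. Shares were not worked out from these, and the counts are not read as a difference.

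**Figure D1:**
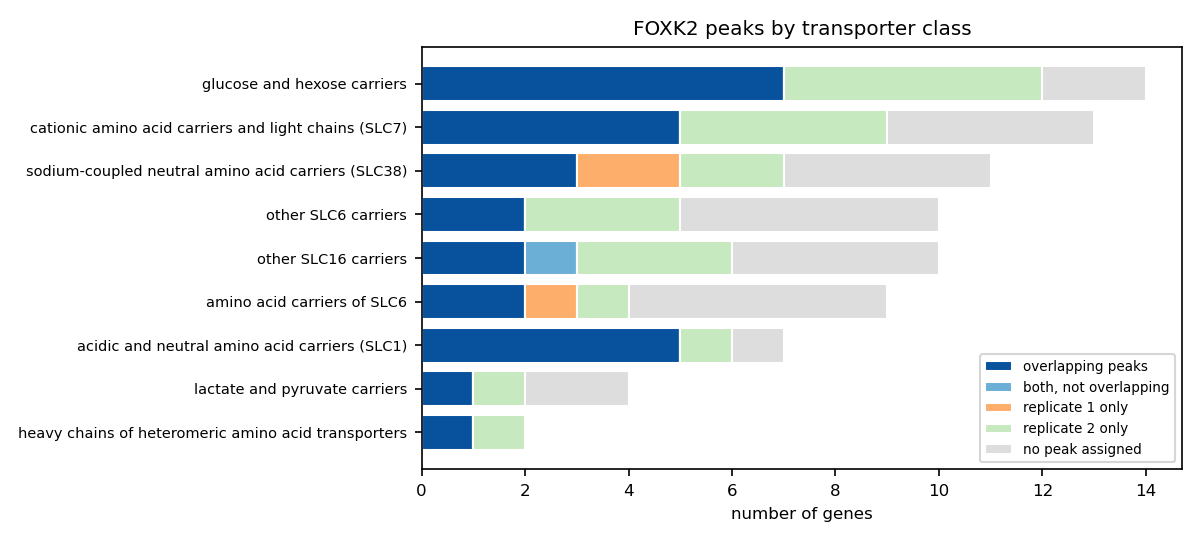
Number of genes (horizontal axis) in each of 9 transporter classes, divided by whether peaks of the replicates overlapped, were in both without overlap, were in replicate 1 or replicate 2 only, or were not assigned. Overlapping peaks were found in 7 of 14 glucose and hexose carriers and 5 of 7 SLC1 carriers, and in 3 of 11 SLC38 carriers, 2 of 9 SLC6 amino acid carriers and 1 of 4 lactate and pyruvate carriers, against 25.5% of all coding genes.

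Scores are scaled to each library, so each peak was placed by its score percentile, the share of peaks of the same list with a lower score, and by its rank from the highest score. Transporter peaks were found at low, middle and high percentiles but not at the top of either list, with highest scores of 20.4 (rank 260) and 36.0 (rank 346), against 188 and 388 over all peaks. Their median percentile was 47.5 in replicate 1 and 49.3 in replicate 2, the same as the medians of all peaks, which are below the midpoint of the scale because scores tie. At or above the list's median score stood 26 of 49 peaks (53.1%), against 52.5% of all peaks, and 61 of 113 (54.0%), against 50.7%. Percentiles of 90 or more were reached by 7 peaks in replicate 1 (14.3%, 7.10% to 26.7%), against 9.65%, and by 12 in replicate 2 (10.6%, 6.18% to 17.6%), against 9.85%. Overlap with the other replicate was found for 41 of 49 peaks in replicate 1 (83.7%, 71.0% to 91.5%), against 74.9% of all peaks, and for 41 of 113 peaks in replicate 2 (36.3%, 28.0% to 45.5%), against 34.2%. All 26 transporter peaks at or above the median score of replicate 1 had a partner in replicate 2, as did 15 of the 23 below it (65.2%), against 89.7% and 58.5% of all peaks. In replicate 2, a partner was found for 35 of 61 peaks at or above the median (57.4%) and for 6 of 52 below it (11.5%), against 56.7% and 11.2%. These shares depend on the length of the lists, and with replicate 2 shortened to its 12471 best peaks 69.4% and 65.4% of transporter peaks had a partner, against 59.9% of all peaks in each list.

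**Figure D2:**
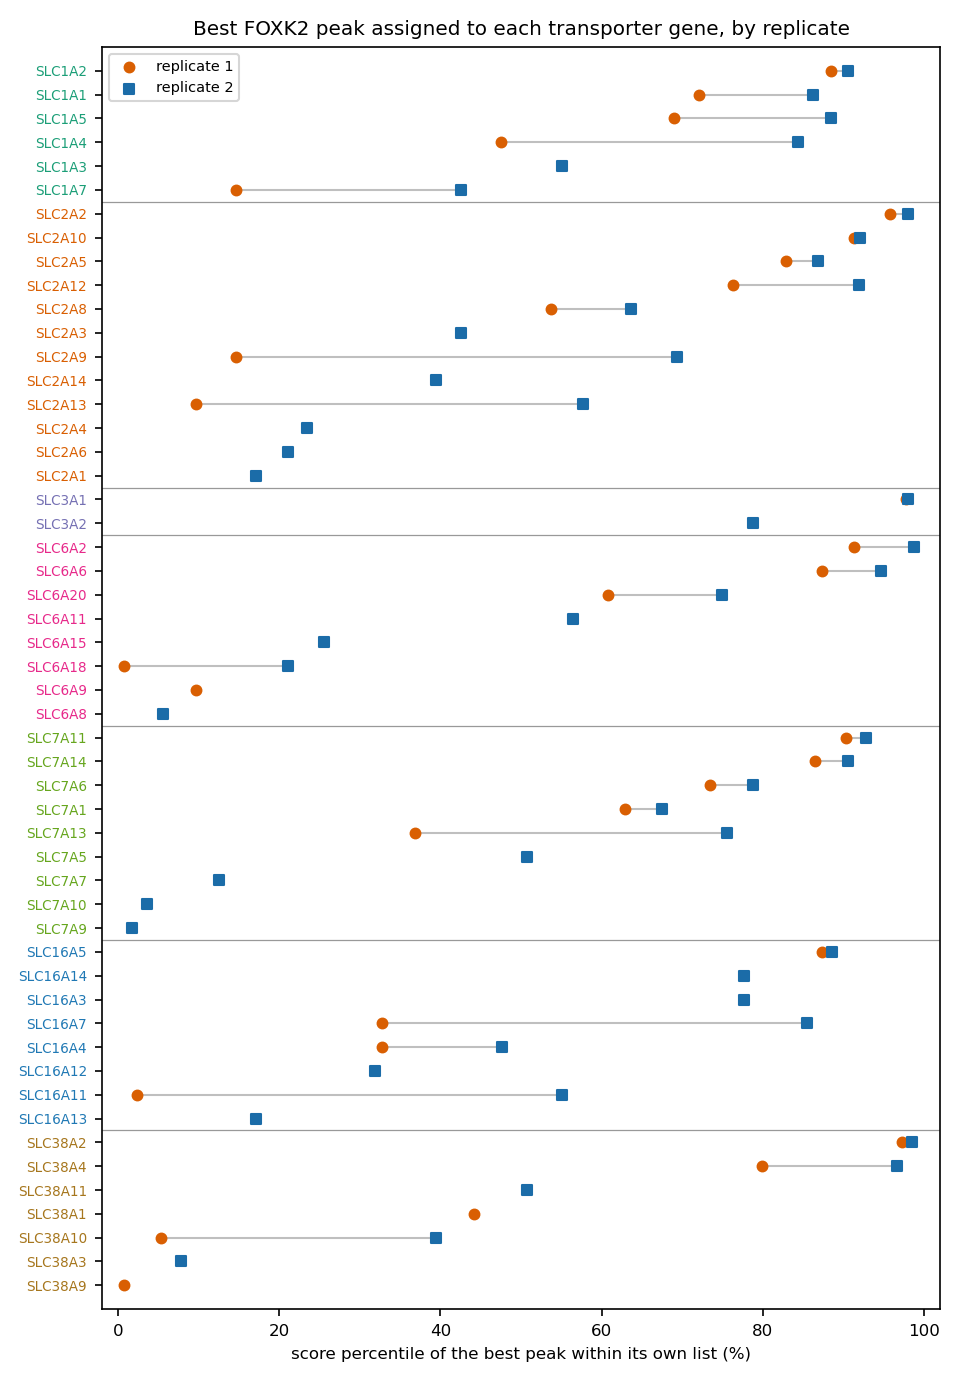
Score percentile of the best peak of 52 of the 53 transporter genes with a peak, the other not being reported here by name (horizontal axis, percent of peaks of the same list with a lower score), in replicate 1 (circles) and replicate 2 (squares), grouped and coloured by family. SLC3A1, SLC38A2, SLC2A2, SLC2A10, SLC7A11 and SLC6A2 were above 90 in both replicates.

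Glucose and hexose carriers of the SLC2 family had overlapping peaks at 7 of 14 genes, peaks in replicate 2 only at 5 and no assigned peak at SLC2A7 and SLC2A11. SLC2A2, the low-affinity glucose carrier known from liver and pancreatic beta cells, had the best pairs of the family. The pair with the heptamer scored 15.8 in replicate 1 (rank 515, percentile 95.8) and 29.9 in replicate 2 (rank 542, percentile 98.0). Its other pair, 18633 bp and 18576 bp upstream of the TSS, was at percentiles 94.3 and 96.1 and lacked the heptamer. SLC2A10, a hexose carrier whose loss causes arterial tortuosity syndrome, had a pair with the heptamer in intron 1, 5915 bp and 5870 bp from the TSS, at percentiles 91.3 and 92.1. SLC2A5, the fructose carrier, had 1 peak in each replicate, 3016 bp and 2914 bp upstream, at percentiles 82.9 and 86.8. SLC2A12 had 3 peaks in replicate 1, all overlapped by 3 of its 6 peaks in replicate 2. The exon 2 pair with the heptamer was at percentiles 76.3 and 91.9, and the promoter pair, 63 bp downstream and 32 bp upstream of the TSS, at 72.1 and 77.6. The intron 2 pair differed most between replicates, at percentiles 0.754 and 72.1.

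The other SLC2 genes with overlapping peaks had lower best pairs. The better pair of SLC2A8, an intracellular hexose carrier, was 60172 bp and 60155 bp upstream of its TSS, within introns of a neighbouring transcript, at percentiles 53.7 and 63.6. SLC2A9, which carries urate, had an intergenic pair at percentiles 14.6 and 69.4. SLC2A13, a proton-coupled myo-inositol carrier, had an intron 1 pair at percentiles 9.70 and 49.3. By assigned gene, the carriers best known from tumour glucose uptake were not among these genes. SLC2A1, the basal glucose carrier GLUT1, was assigned no peak in replicate 1 and 2 peaks in replicate 2, both upstream, at percentiles 17.1 and 0.663. SLC2A3, the high-affinity carrier GLUT3, was assigned 1 peak in replicate 2, 46185 bp upstream, at percentile 42.6. SLC2A4, the insulin-responsive carrier, had a promoter peak at percentile 23.4 in replicate 2 only, as had SLC2A6 at 21.1, and SLC2A14, the near copy of SLC2A3, had an intron 1 peak at 39.4.

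For SLC2A1 the assignment to the nearest TSS mattered, because the antisense gene SLC2A1-AS1 begins close to its start and took peaks that lie inside the SLC2A1 gene. Here and below, a peak is called within a gene if its centre lay in the GENCODE extent or up to 1000 bp upstream. Within SLC2A1, 2 peaks of replicate 1 and 4 peaks of replicate 2 were assigned to SLC2A1-AS1. A pair in intron 2 of SLC2A1, chr1:42941114-42941324 in replicate 1, overlapped between replicates at percentiles 60.8 and 78.8, and a pair at the promoter of the antisense transcript at percentiles 36.9 and 61.3. None of these peaks held the heptamer. ChIP-seq does not tell which transcript a peak acts on.

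Lactate and pyruvate carriers of the SLC16 family were represented mainly by SLC16A7, the high-affinity carrier MCT2, which was assigned 4 peaks in replicate 1 and 12 in replicate 2, the most of any transporter gene in either list. They ranged from 164123 bp upstream to 1023609 bp downstream of the TSS, and 7 of the 12 held the heptamer. In replicate 2 it was in 28.2% of all peaks and 32.7% of transporter peaks. Its best pair, in intron 1 of a longer transcript 37071 bp and 37057 bp upstream of the assigned TSS, held the heptamer at percentiles 32.7 and 85.5. A pair 283879 bp and 283874 bp downstream was at 32.7 and 60.1, and a further pair, beside the best, at 9.70 and 69.4. SLC16A3, the lactate exporter MCT4 of glycolytic cells, had a pair of promoter peaks in replicate 2 only, 6 bp and 207 bp upstream of alternative starts, at percentiles 49.3 and 77.6. Within SLC16A3, 1 peak of replicate 1, at 14.6, and 2 of replicate 2, at 52.1 and 31.9, were assigned to MIR6787 or CSNK1D. None of them overlapped. SLC16A1, the widely expressed carrier MCT1, and SLC16A8 were assigned no peak. Within SLC16A1, however, a pair of peaks in intron 1 was assigned to the pseudogene AKR7A2P1, at percentiles 2.36 and 44.4, and another replicate 1 peak to SLC16A1-AS1, at percentile 76.3.

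Among the other 10 SLC16 genes, whose cargoes include aromatic amino acids, SLC16A5 and SLC16A4 had overlapping peaks. SLC16A5 had a pair in intron 3 at percentiles 87.3 and 84.8 and a pair 3436 bp and 3406 bp upstream at 56.1 and 88.6. Its promoter peaks, at 40.9 and 78.2, did not overlap. The SLC16A4 pair, 2622 bp and 2644 bp upstream, held the heptamer once in replicate 1 and 2 times in replicate 2, at percentiles 32.7 and 47.7. SLC16A11 had a peak in each replicate that did not overlap, at 2.36 and 55.1. SLC16A12, SLC16A13 and SLC16A14 were found in replicate 2 only, and SLC16A6, SLC16A9 and SLC16A10 in neither. In SLC16A12, a pair in intron 2 was assigned to SLC16A12-AS1, at percentiles 86.0 and 94.9, above any peak assigned to SLC16A12 itself, whose best was at 31.9.

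SLC1 carriers, which take up glutamate or neutral amino acids, had overlapping peaks at 5 of 7 genes. SLC1A5, the glutamine carrier ASCT2, had a promoter pair with the heptamer 135 bp and 125 bp upstream of an alternative start. It scored 7.55 in replicate 1 (rank 3663, percentile 69.0) and 15.3 in replicate 2 (rank 3113, percentile 88.4). SLC1A2, a glutamate carrier known from astrocytes, had an intron 1 pair at percentiles 88.5 and 90.5 that held an AP-1 site and the amino acid response element core, but not the heptamer. SLC1A1, the glutamate and cysteine carrier of epithelia and neurons, had the pair printed above, 69869 bp and 69870 bp upstream, at 72.1 and 86.2. SLC1A4, a carrier of serine and alanine, had an intergenic pair at 47.5 and 84.4 in which the peaks shared 35 bp. Its promoter peak, at percentile 50.7, was in replicate 2 only. The SLC1A7 pair in intron 2 held the heptamer at 14.6 and 42.6. SLC1A3 had 4 peaks in replicate 2 only, the best at 55.1, and SLC1A6 had none.

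The heavy chains differed from each other. SLC3A1, which pairs with SLC7A9 to recover cystine and dibasic amino acids in kidney and intestine, had 3 peaks in replicate 1 and 5 in replicate 2, and all 3 overlapped. Its intron 4 pair, chr2:44291393-44291603 in replicate 1, had the best mean percentile of all 41 overlapping pairs, with scores of 20.4 (rank 260, percentile 97.8) and 29.7 (rank 546, percentile 98.0), and lacked the heptamer. Its intron 1 pairs were at 69.0 and 87.1, with the heptamer, and at 65.1 and 81.0, without it. SLC3A2, the heavy chain CD98 that serves most light chains of proliferating cells, had peaks in replicate 2 only, both annotated as promoter, at percentiles 78.8 and 49.3 and without the heptamer.

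SLC7 genes, the cationic amino acid carriers and light chains, had overlapping peaks at 5 of 13. SLC7A11, the cystine and glutamate exchanger xCT that feeds glutathione synthesis, had a promoter pair 164 bp and 171 bp upstream of the TSS. It scored 11.9 in replicate 1 (rank 1147, percentile 90.3) and 18.6 in replicate 2 (rank 1915, percentile 92.8). Both peaks held the amino acid response element core and neither held the heptamer. A further pair, 17682 bp and 17663 bp upstream, was at 29.0 and 63.6. SLC7A14 had a pair at 86.5 and 90.5 in an intron of a noncoding transcript, 7060 bp and 7012 bp upstream. SLC7A6, a light chain, had a pair 6389 bp and 6402 bp upstream, within an intron of another transcript, at 73.5 and 78.8. Its promoter peak, at 75.6, was in replicate 2 only. SLC7A1, the main cationic amino acid carrier, had an intron 1 pair at 62.9 and 67.5, and SLC7A13 an intergenic pair with the heptamer at 36.9 and 75.6. SLC7A5, the leucine carrier LAT1, was assigned 1 peak, in replicate 2, 1223 bp upstream at percentile 50.7. SLC7A7, SLC7A9 and SLC7A10 had 1 weak peak each in replicate 2, at 12.6, 1.76 and 3.65, and SLC7A2, SLC7A3, SLC7A4 and SLC7A8 had none. A pair overlapping between replicates lay within SLC7A7 or up to 1000 bp upstream but was assigned to MRPL52, at percentiles 19.4 and 42.6. The authors annotated it as promoter of a transcript of that gene. A further pair, assigned to WWP1 at 40.9 and 77.6, lay within the GENCODE extent of SLC7A13 or up to 1000 bp upstream. The authors annotated it as intergenic.

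SLC38 carriers, sodium-coupled importers of glutamine and other neutral amino acids, had overlapping peaks at 3 of 11 genes. The promoter of SLC38A2, a carrier induced when amino acids run short, was the best transporter promoter. Its pair, 20 bp downstream and 8 bp upstream of the assigned TSS, scored 18.5 in replicate 1 (rank 350, percentile 97.2) and 34.1 in replicate 2 (rank 400, percentile 98.5). The sequence was rich in G and C, with 75.6% and 77.6% of bases, and held none of the 4 motifs searched. Its intron 7 pair held the heptamer at 47.5 and 42.6. The SLC38A4 pair, 160822 bp and 160834 bp downstream of the TSS, held the heptamer and 2 AP-1 sites at percentiles 79.9 and 96.6. SLC38A10 had a weak pair with the heptamer at 5.38 and 39.4. SLC38A1 had 1 peak at 44.2 in replicate 1 only, as had SLC38A9, the lysosomal arginine sensor of mTORC1, at 0.754. SLC38A3 and SLC38A11 were found in replicate 2 only, and SLC38A5, SLC38A6, SLC38A7 and SLC38A8 were assigned none. Within the GENCODE extent of SLC38A6 or up to 1000 bp upstream, 2 peaks in each replicate were assigned to TRMT5. The pair overlapping between replicates held the heptamer at 65.1 and 88.1, and the authors annotated it as intergenic.

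SLC6 genes, which divide into amino acid carriers and carriers of transmitters, taurine and creatine, had overlapping peaks at 4 of 19. Of the 9 amino acid carriers, SLC6A20, which carries proline, had an intergenic pair at percentiles 60.8 and 74.9, and SLC6A18 an intron 1 pair at 0.754 and 21.1. SLC6A9, a glycine carrier, had a weak promoter peak at 9.70 in replicate 1 only, SLC6A15 had peaks in replicate 2 only, and SLC6A5, SLC6A7, SLC6A14, SLC6A17 and SLC6A19 had none. Of the other 10, SLC6A2, the noradrenaline carrier, had a pair with the heptamer 32278 bp and 32287 bp upstream. It scored 12.3 in replicate 1 (rank 1046, percentile 91.3) and 36.0 in replicate 2 (rank 346, percentile 98.7), the highest transporter score of that list. SLC6A6, the taurine carrier, had a promoter pair without the heptamer at 87.3 and 94.6, and weaker pairs in introns 5 and 2 at 32.7 and 56.5 and at 9.70 and 58.9. SLC6A8 and SLC6A11 were found in replicate 2 only, with best percentiles of 5.64 and 56.5, and SLC6A3, SLC6A4, SLC6A12, SLC6A13 and SLC6A16 in neither.

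Of the 27 genes without an assigned peak, 4 had a peak that was assigned to another TSS. It lay within the gene's GENCODE extent or up to 1000 bp upstream. They were SLC16A1, SLC16A6, SLC16A10 and SLC38A6, and 23 genes had none in either list. Absence from a list says only that no peak passed the authors' threshold at this depth. The study compared target with input in separate statistics per peak, which were not used here, and whether input also served as control for the calls in each replicate is not given in the sources used here.

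Within the 41 overlapping pairs, the replicates ordered the peaks similarly. Spearman's rho of the score percentiles was 0.881, against 0.852 over all 9343 pairs, as a description across peaks that share their libraries. Centres lay a median of 30.0 bp apart, against 29.0 bp. Both peaks were assigned to the same gene in all 41 pairs, against 9266 of all 9343 pairs. The percentile was higher in replicate 2 in 39 of 41 pairs (95.1%), against 89.9% of all pairs. A percentile depends on the other peaks of its list, and the lists differed in length, so that this direction is no comparison of the replicates. Its cause was not tested. The exceptions were the intron 3 pair of SLC16A5 and the intron 7 pair of SLC38A2. Pairs without the heptamer were found at all levels, as 15 pairs held it in both replicates, 1 in a single replicate and 25 in neither, against 3119, 230 and 5994 of all 9343 pairs.

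**Figure D3:**
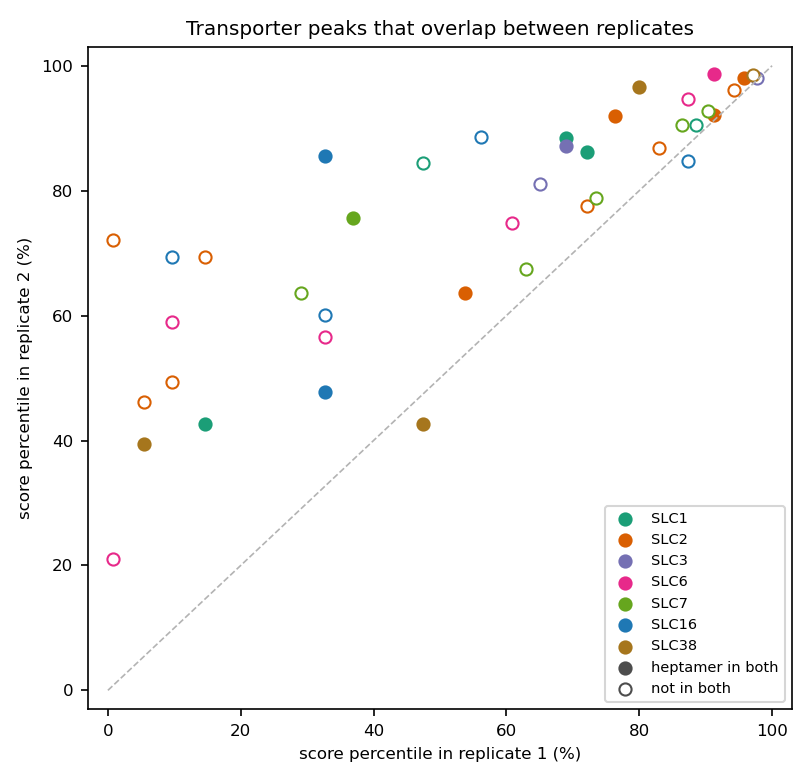
Score percentile in replicate 1 (horizontal axis) and in replicate 2 (vertical axis) of the 41 overlapping pairs of transporter peaks, coloured by family, with filled circles where TGTTTAC lay within 100 bp of both centres. The dashed line marks equal percentiles, and 39 pairs lie above it.

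The forkhead heptamer, searched as TGTTTAC on both strands within 100 bp of the centre, was found in 17 of 49 transporter peaks in replicate 1 (34.7%, 22.9% to 48.7%), against 30.5% of all peaks. In replicate 2 it was found in 37 of 113 (32.7%, 24.8% to 41.8%), against 28.2%. In flanking windows of equal width, centred 2000 bp before and after transporter peaks, it was found in 3.06% (1.05% to 8.62%) and 2.21% (0.949% to 5.07%). Peaks of other SLC families held it in 29.1% of 127 and 23.7% of 266 cases. Transporter peaks that overlapped between replicates held it in 39.0% and 36.6% of cases, against 34.3% and 34.9% of all overlapping peaks. Of those found in a single replicate, 1 of 8 in replicate 1 held it (12.5%), against 19.4%, and 22 of 72 in replicate 2 (30.6%), against 24.6%. The AP-1 site TGACTCA was in 14.3% and 16.8% of transporter peaks, against 16.4% and 16.6% of all peaks. TGATGNAA was in 6.12% and 3.54%, against 4.04% and 4.24%, and the E-box CACGTG, bound by MYC and related factors, in 6.12% and 7.08%, against 6.02% and 5.21%. The intervals of these shares of transporter peaks included the value of all peaks, and the differences were not tested.

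**Figure D4:**
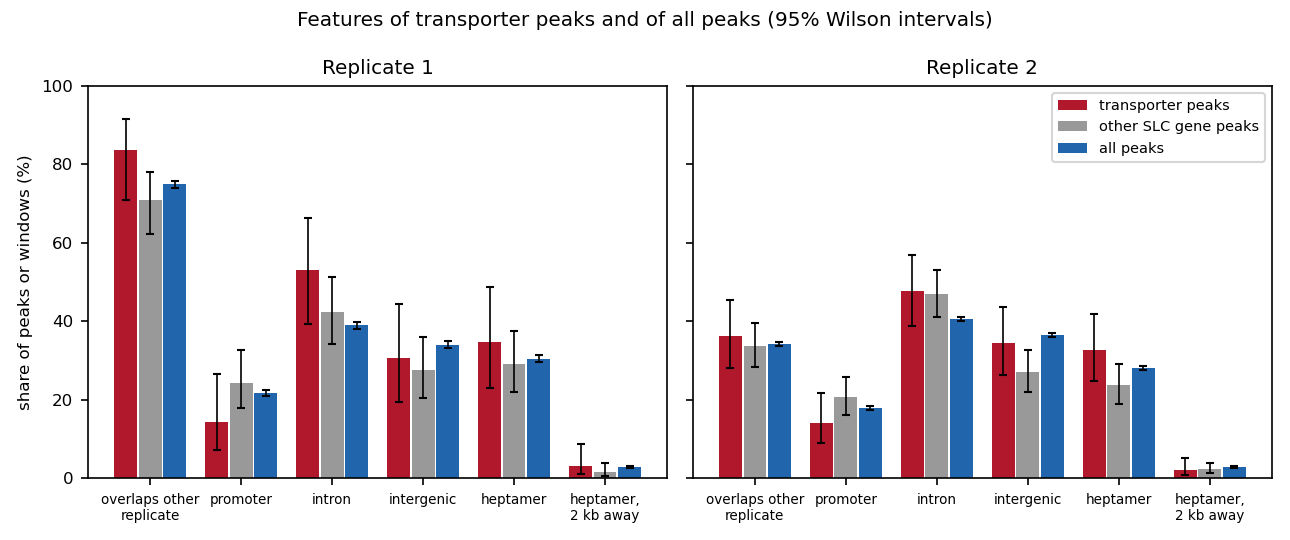
Share of peaks, or for the last group of windows 2000 bp away (vertical axis, percent), with each feature in each replicate, for transporter peaks, peaks of other SLC families and all peaks. Error bars are Wilson 95% intervals. The heptamer was found in 34.7% and 32.7% of transporter peaks and in 3.06% and 2.21% of the windows beside them.

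Promoter sequence was compared with RefSeq (GRCh38.p14), which gave 84 promoters, from 250 bp before to 50 bp after the start, for 58 of the 80 genes. The heptamer was in 1 of the 84 (1.19%, 0.210% to 6.44%), against 3.42% of 35116 promoters, and this was the alternative SLC1A5 promoter whose sequence is printed above. TGATGNAA was in 7 (8.33%, 4.1% to 16.2%), against 3.62%, TGACTCA in 8 (9.52%, 4.91% to 17.7%), against 4.95%, and CACGTG in 11 (13.1%, 7.47% to 21.9%), against 7.26%. The intervals of TGATGNAA and CACGTG lay above the share of all promoters, and the differences were not tested. SLC7A11, whose stretch printed above held TGATGNAA 2 times, was not among the 7. Whether it was among the 58 genes is not given here. Promoters of the same gene can overlap, so that these counts are not independent, and a match shows only that the letters are present.

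Transporter peaks were mostly distal to the start. Promoter annotation applied to 7 of 49 in replicate 1 (14.3%, 7.10% to 26.7%), against 21.7% of all peaks, and to 16 of 113 in replicate 2 (14.2%, 8.91% to 21.8%), against 18.0%. With promoters taken from GENCODE starts the shares were 18.4% and 23.9%, against 29.5% and 25.2%. Introns held 53.1% (39.4% to 66.3%) and 47.8% (38.8% to 56.9%), against 39.0% and 40.6%, and intergenic regions 30.6% and 34.5%, against 34.1% and 36.5%. The median distance to the TSS was 13210 bp in replicate 1 and 21250 bp in replicate 2, against 16140 bp and 20161 bp. In replicate 1, 16 peaks were 1 to 10 kb from the TSS (32.7%, 21.2% to 46.6%), against 16.3%, while replicate 2 gave 17.7% (11.8% to 25.8%), against 15.9%. Promoter peaks of transporters had a median G and C content of 54.7% and 69.9%, against 63.2% and 63.7%, from 7 and 16 peaks.

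**Figure D5:**
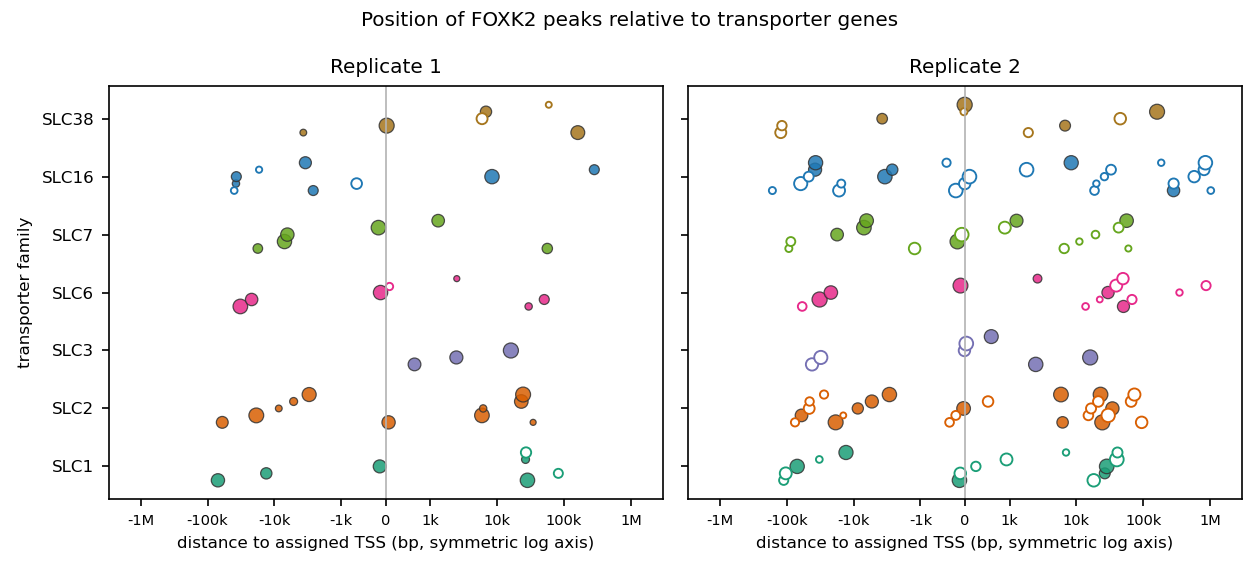
Distance of each transporter peak to its assigned TSS (horizontal axis, bp, symmetric log axis, negative upstream) by family (vertical axis) in each replicate, with larger circles for higher score percentiles and filled circles for peaks that overlapped the other replicate. The peak farthest from its TSS was one of SLC16A7, 1023609 bp downstream in replicate 2.

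Genes that work with these carriers were taken from a further list of 25, of which 9 had overlapping peaks (against 25.5% of coding genes). Of the others, 1 had peaks in both replicates without overlap, 8 had peaks in replicate 2 only and 7 had none. The list was chosen with earlier results of these data known, so its counts are not read as a difference. Among the 8 partner and trafficking genes, 5 had overlapping peaks. TXNIP, an arrestin that lowers glucose uptake by removing GLUT1 from the surface, had a promoter pair at rank 96 in replicate 1 (score 29.2) and rank 71 in replicate 2 (score 62.8), above every transporter peak. ARRDC4, a related arrestin, had a promoter pair at percentiles 83.8 and 93.6. Among the 7 enzymes that first act on the cargo, HK2, the hexokinase that traps glucose as its phosphate, was the only gene with overlapping peaks, in intron 2 at 95.9 and 95.3, and 4 had peaks in replicate 2 only. Among 10 carriers of other families, 3 had overlapping peaks, of which the best pair was that of SLC36A4, with a mean percentile of 81.9.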

How the data were processed

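FOXK2 ChIP-seq peak lists of 2 biological replicates of OVCAR5 cells were used as deposited. The authors mapped reads to hg38 with Bowtie2 2.2.6 and called and annotated peaks with HOMER 4.10, 1 list per replicate. Deposited peak scores are tag counts at a peak, scaled by the authors' software to the library, and were ranked within a list only. The deposited focus ratio, a fraction of tags on the expected side of the centre, was not used for any result. Peaks spanned 210 bp and 256 bp. The score steps were 0.1886 and 0.1487, and all scores below 10 were whole multiples within 0.006. With default scaling, the weakest peak of each list held 16 tags (Poisson 95% interval 9.15 to 26.0) and 21 tags (13.0 to 32.1).

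Peaks overlapping by at least 1 bp were paired. Both strands were scanned for motifs to 100 bp either side of the centre. GENCODE release 44 gave the gene list and gene bodies, which were extended 1000 bp upstream. Shares carry Wilson intervals at 95%, which cover counting error only. No test was made, since the lists hold 1 condition. The members and gene lists were chosen with earlier results of these data known. By rule, values are given for the 25 genes with the best overlapping pairs, for 10 genes named whatever their values, and for up to 4 examples of the context list. The other genes with overlapping pairs or with peaks in 1 replicate were given briefly, outside that rule and after their values were seen. All 80 genes enter the counts, and some genes are not reported by name here. Sequences are those of the 8 best pairs with the heptamer, outside chromosome 8. Alternatives were stricter scores, lists of equal length, named chromosomes, limits on distance, overlap, motif, motif window, promoter definition and gene assignment, and leaving out each replicate. Scripts were tested on simulated data. Input libraries, reads and RNA-seq were not analysed here. Python 3.11.15, numpy 2.4.6, pandas 2.3.3 and scipy 1.17.1 were used.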

Additional observations from a re-analysis of the deposited data

How the results depend on the processing

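Of 65 alternatives for the summary values, 46 stayed within a set tolerance and 19 did not. Some of the 46 could not move, so the tally is no measure of stability. Named chromosomes kept all 49 and 113 transporter peaks, and equal length left the replicate 1 list unchanged. Requiring the same gene changed nothing either, as both peaks of all 41 pairs shared it. The tolerance was 1.5 times for a count, the Wilson interval of the reported value for a share, and the SD of both replicates' medians for a median percentile. It was wide for counts and shares, so that the genes in both replicates passed at 20, against 29, with peaks at or above the median score, and the heptamer in replicate 1 at 24.5%, against 34.7%, within 50 bp of the centre. With peaks at or above each list's median score, 26 and 61 transporter peaks were left and 96.2% of those of replicate 1 had a partner, against 87.5% of all such peaks. With lists of equal length, replicate 2 kept 52 transporter peaks, and 69.4% and 65.4% overlapped, against 59.9% of all peaks in each list. Within 10000 bp of the TSS, 24 and 41 peaks and 18 genes in both replicates were left, 51.2% of the replicate 2 peaks overlapped and 21.95% held the heptamer, against 40.0% and 20.1% of all such peaks, and the median percentiles were 64.0 and 55.1, against 53.7 and 57.7. Within 100000 bp, the replicate 2 median was 50.7, as over all such peaks. With promoter peaks only, 6 genes were in both replicates. Leaving out each replicate gave 32 to 50 genes with a peak. With TGTTTNC, 49.0% and 46.9% of peaks held the motif, against 45.9% and 43.8% of all peaks, and with GENCODE promoters 23.9% of replicate 2 peaks were at a promoter, against 25.2%. For single genes, the value was the mean percentile of the best peaks of the replicates. These peaks need not overlap, and genes with peaks in 1 replicate kept that percentile. Of 38 alternatives other than leaving out a replicate, 36 gave the same value. Alternatives that took away all peaks of a gene in a replicate were skipped, so the tally leaves out such losses. SLC38A4 within 100000 bp was skipped for this reason, and the tally is no measure of stability. With promoter peaks only, that of SLC2A12 was 74.8, against 84.1, and that of SLC16A5 was 59.6, against 87.9. Both SLC16A5 values join peaks that do not overlap, and its best pair had a mean of 86.0. Leaving out a replicate leaves the percentile of the other. Among the genes named by rule, this moved the mean of the best peaks by over 1.5 times for 4. Of these, SLC2A13 moved from 33.7 to 9.70 or 57.7 and SLC2A9 from 42.0 to 14.6 or 69.4. The others were SLC16A7, from 59.1 to 32.7, and SLC7A13, from 56.2 to 36.9. The 33.7 of SLC2A13 joins peaks that do not overlap, and its best pair had a mean of 29.5. The 3 other genes with overlapping pairs moved as far, SLC38A10 from 22.4 to 5.38 or 39.4, SLC1A7 from 28.6 to 14.6 and SLC6A18 from 10.9 to 0.754 or 21.1. The causes were not tested. No paired analysis was possible because the replicates belong to a single condition and the input libraries were not analysed here. With 2 replicates, the spread of a peak rests on a single difference, and the nearest TSS need not be that of the gene a peak acts on.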
